A study of Hipposideros armiger with 2 samples.

Results

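Metallothioneins and zinc transporters set how much zinc a cell takes up, stores and exports. The 10 genes described here are the metallothionein names MT3 and MT4, the metal-sensing transcription factor MTF1, the zinc exporters SLC30A1, SLC30A5 and SLC30A9, and the zinc importers SLC39A1, SLC39A5, SLC39A7 and SLC39A14. They were taken by name from the deposited expression tables, where 14 assembled genes of 55378 carried one of these names, out of 12783 distinct names in all. Each of the 10 had a count above 0 in both libraries.

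The animals were 2 bats of the species Hipposideros armiger, the great Himalayan leaf-nosed bat, from the CW cave, in Chunwan, Guangdong, labelled as wild-type and as exposed to heavy metals. They were wild adult males caught in mist-nets and killed with inhaled ethyl ether; the labels name neither the metals nor a dose. RNA of tissue labelled liver was selected for poly(A) and sequenced, giving 18741210 expected counts in replicate 1 and 18778331 in replicate 2. Bats of the second cave were not analysed here, so the data show levels under one condition and how far 2 animals differed, with no p-value between 1 library and 1 library. The study asked how heavy metals bear on liver function, and the genes here belong to the cell's own handling of such metals.

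The labelled tissue was checked against markers. The 10 hepatocyte markers, such as albumin (ALB) and the urea cycle enzyme CPS1, summed to 11628 TPM (a share of all transcripts, corrected for transcript length) in replicate 1 and 332 TPM in replicate 2, and all 10 had counts in both. The 8 alveolar and airway markers summed to 11881 and 18911 TPM, again with counts for all 8, though SCGB1A1 had only 1 in replicate 1. Most of each sum was the airway secretoglobin SCGB3A1, at 8069 and 12898 TPM, and surfactant protein SFTPC was at 2554 and 4047 TPM. Both libraries thus held lung epithelial transcripts in a tissue labelled liver, and replicate 2 held little of the hepatocyte set. In bulk tissue, fewer cells of a type and less RNA per cell cannot be told apart. Every value below is therefore given for each library.

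Zinc is needed by many enzymes and DNA-binding proteins, and free zinc in the cytosol is kept very low. Metallothioneins are small cysteine-rich proteins that bind zinc and copper and also toxic metals such as cadmium; in mammals the liver makes them when zinc, cadmium, glucocorticoids or inflammation rise. MTF1 binds zinc and then switches on metallothionein genes and the exporter SLC30A1. SLC30 proteins, also called ZnT, move zinc out of the cytosol, to the outside or into organelles, and SLC39 proteins, also called ZIP, move it into the cytosol.

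The metallothionein named MT4 stood far above the other 9 genes in both libraries. Replicate 1 had 1156 TPM of it from 4721 counts, and replicate 2 had 333 TPM from 1464 counts. This made it the 43rd highest of 12783 names in replicate 1 and the 205th in replicate 2. The summed level of the 10 genes was 1260 and 448 TPM, a mean of 854 ± 574 (SD, n = 2 here and below), and MT4 alone made up 91.7% and 74.3% of it. Without MT4 the other 9 genes summed to 104 and 115 TPM, or 110 ± 7.80, so the spread of the summed level came from MT4. In mammals MT4 is known from stratified squamous epithelium such as skin and tongue.

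The name of this transcript rests on its best protein match, human metallothionein-4, and on the metallothionein domain that the tables list for it. Of 13 metallothionein names looked for, including the widely made MT1 and MT2 forms, only MT3 and MT4 were carried by an assembled gene. None of the other 11 names is a RefSeq gene symbol of this species, so missing names do not show that such transcripts were absent. Metallothioneins are short and alike, so the match does not show which member of the family was sequenced. The assembly holds 36 transcript variants under this 1 gene, more than 99.6% of assembled genes have, where the median gene has 1. Of the markers of the epithelium from which MT4 is known, KRT5 was at 5.46 and 12.8 TPM and KRT14 at 4.51 and 3.74. KRT1 was at 0.36 and 0.31, and KRT10 at 19.3 and 32.6, ranked 3335th and 2221st of the 12783 names. These 4 markers summed to 29.6 and 49.4 TPM. The 2 that could be tested on counts, as described below, had log2 ratios of replicate 2 over replicate 1 of -0.12 (KRT5) and 0.28 (KRT10), and no assembled gene carried the names IVL, DSG3 or SPRR1B. The part of such epithelium in the MT4 level was not tested.

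The level of MT4 also depends on the length used for it. The listed length of its assembled gene is 957 bases, but its deposited TPM corresponds to a length of about 185 bases in replicate 1 and 226 in replicate 2, by the ratio of counts to TPM. Such implied lengths fall below the listed ones for short genes. An assembled MT3 gene of 316 bases with 1 variant had 103 and 105, so 185 and 226 are not transcript lengths. Computed from its counts and the listed length, MT4 was at 386 and 130 TPM, still above each of the other 9 genes in both libraries. Counts scaled to library size alone (CPM) do not use a length: the unscaled CPM of MT4 were 252 in replicate 1, with a Wilson 95% interval from 245 to 259, and 78.0 in replicate 2, with one from 74.1 to 82.1. Such intervals cover counting error only, because reads were not tagged by molecule and may repeat one.

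The name MT3, a metallothionein known from brain that also binds copper, was at 18.2 and 27.6 TPM, from 96 and 133 counts. MT4 was 63.5 times as high as MT3 in replicate 1 and 12.1 times in replicate 2. Nearly all of the MT3 level, 95.2% and 98.2%, came from 1 assembled gene of 713 bases for which the tables list no protein domain. The shorter MT3 gene of 316 bases does have the metallothionein domain, and held 2 counts and 1 count. Both have sheep metallothionein-3 as best match. Of the brain markers, MBP, a myelin protein also made elsewhere, was at 6.80 and 9.46 TPM, and no assembled gene carried the names SNAP25, SYT1, GFAP or NEFL.

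A further 2 assembled genes have a metallothionein-like protein of rice, MT3B, as best match. They are not among the 10 genes and had 0 counts in both libraries, which allows a share of up to 1.60e-05% of the counts in each.

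MTF1, the sensor that drives metallothionein transcription, was near the bottom of the 10 genes. Its levels were 1.32 and 2.14 TPM, from 77 and 111 counts on 1 assembled gene of 2534 bases. It ranked 12026th and 11481st of the 12783 names. The counting intervals of its share overlapped between the libraries, at 3.29 to 5.13 and 4.91 to 7.12 unscaled CPM.

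**Figure D1:**
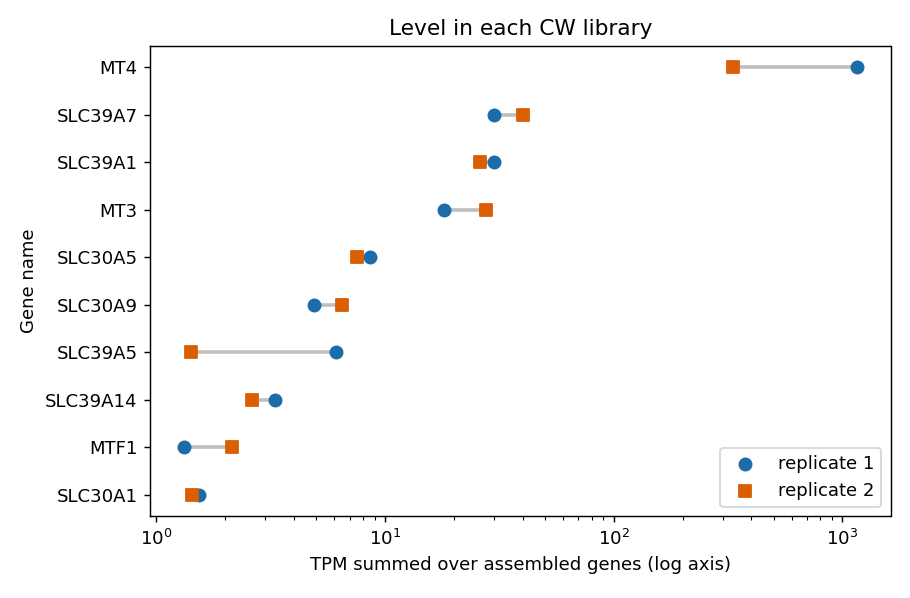
TPM of the 10 genes (rows, summed over assembled genes of a name) in replicate 1 (circles) and replicate 2 (squares) of the CW group, on a log axis, with a grey line joining the 2 libraries. MT4 lies at 1156 and 333 TPM, above every other gene, and the longest lines are those of SLC39A5 and MT4.

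Of the 4 importers among the 10 genes, SLC39A7, which releases zinc from the endoplasmic reticulum, and SLC39A1, which brings zinc in across the plasma membrane, were the highest. SLC39A7 was at 30.1 and 39.95 TPM, or 35.0 ± 6.97, from 991 and 1138 counts on 1 assembled gene. SLC39A1 was at 30.08 and 25.96 TPM, or 28.02 ± 2.91, from 769 and 815 counts. SLC39A1 had more counts but fewer TPM in replicate 2. The length implied for its main assembled gene was 1331 bases in replicate 1 and 1856 in replicate 2, over 7 transcript variants; the part of the variants in this was not tested.

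SLC39A5 and SLC39A14 were the low importers. SLC39A5, a basolateral importer known from pancreas, gut and liver, was at 6.11 and 1.42 TPM, from 111 and 23 counts. SLC39A14, through which hepatocytes take up zinc, manganese and iron that is not bound to transferrin, was at 3.31 and 2.62 TPM, from 350 and 224 counts. Cadmium is also carried by SLC39A14, and by its close relative SLC39A8, which was at 9.57 and 8.96 TPM from 478 and 533 counts. SLC39A8 was therefore above SLC39A14 in each library.

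The exporters were lower than the leading importers. SLC30A5, which loads zinc into the secretory pathway, was at 8.56 and 7.52 TPM, or 8.04 ± 0.735. Of this, only 4.09 and 4.34 TPM came from the 2802-base assembled gene that held 268 and 253 counts. The rest came from fragments of 238 and 208 bases with at most 2.44 counts each. SLC30A9, which exports zinc from mitochondria, was at 4.91 and 6.48 TPM, from 613 and 719 counts on an assembled gene of 5063 bases. SLC30A1, the main exporter of the plasma membrane and an MTF1 target, was the lowest of the 10 by its mean, at 1.53 and 1.43 TPM from 64 and 53 counts. In each library SLC30A1 was thus among the lowest of the 10 and MT4 the highest.

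By mean TPM the order was MT4, SLC39A7, SLC39A1, MT3, SLC30A5, SLC30A9, SLC39A5, SLC39A14, MTF1 and SLC30A1. The libraries gave the same order at 5 of the 9 neighbouring pairs, with no overlap of values: MT4 over SLC39A7, SLC39A7 over SLC39A1, MT3 over SLC30A5, SLC30A5 over SLC30A9, and SLC39A14 over MTF1. In replicate 1 SLC39A7 and SLC39A1 were all but level, at 30.10 and 30.08 TPM. In both libraries SLC30A5 exceeded SLC30A9 only with its short fragments. The main assembled gene of SLC30A5 was at 4.09 and 4.34 TPM, below SLC30A9 at 4.91 and 6.48. The other 4 pairs, SLC39A1 with MT3, SLC30A9 with SLC39A5, SLC39A5 with SLC39A14, and MTF1 with SLC30A1, changed order between the libraries and did not differ beyond their spread.

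The rest of both transporter families was measured to place these genes. Of 10 SLC30 names 8 were found, and of 14 SLC39 names 12; SLC30A8, SLC30A10, SLC39A2 and SLC39A12 were carried by no assembled gene. SLC39 importers summed to 119 and 147 TPM and SLC30 exporters to 33.8 and 36.8 TPM. The importers were thus 3.52 and 3.99 times as high in TPM. In counts, which are not corrected for length, importers summed to 3458 and 3745 and exporters to 1211 and 1144. In deposited TPM, MT4 alone was 7.56 times the sum of both families in replicate 1 and 1.82 times in replicate 2. These multiples depend on the short length implied for MT4. In replicate 2 MT4 had 1464 counts, fewer than the importers alone. The plasma membrane importer SLC39A6 was at 15.9 and 27.2 TPM, from 178 and 214 counts over 4 assembled genes. SLC39A10, also of the plasma membrane, was at 8.70 and 16.7 TPM, from 36 and 56 counts over 3 assembled genes. In replicate 2 SLC39A6 was thus above SLC39A1 in TPM but not in counts, where SLC39A1 had 815. SLC39A13, which acts in connective tissue, was at 8.89 and 13.7 TPM. SLC39A3 was at 3.24 and 5.88 TPM and SLC39A11 at 1.71 and 3.06, while SLC39A9, at 0.93 and 0.91, and SLC39A4, the intestinal zinc importer, with 6 and 3 counts, stayed under 1 TPM.

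Of the other exporters, SLC30A6, which pairs with SLC30A5 in the secretory pathway, was at 6.25 and 8.14 TPM from 82 and 97 counts. The TPM of SLC30A3, 4.79 and 12.1, rest on 8 and 18 counts over a fragment. SLC30A4 had 7 and 2 counts and SLC30A7 had 3 counts and 1 count. SLC30A2, known for moving zinc into secretory vesicles and for zinc in milk, had 162 counts (4.94 TPM) in replicate 1 and 0 in replicate 2. With 3 counts taken as the detection floor in replicate 2, it was at least 65.4-fold lower there, a log2 bound of -6.03 that leaves out the counting error of the 162 counts. The exact 95% counting interval, which includes it, puts the log2 ratio below -5.70. In all, 23 of 38 names on the pathway list were found. Of the 15 not found, 11 were metallothionein names that are not RefSeq symbols of this species. In both libraries 18 of the 23 were at 1 TPM or more. Most of the 12783 names reach that level, so the count does not set the pathway apart. MTF1, at 1.32 TPM in replicate 1, ranked 12026th, and SLC39A5, at 1.42 TPM in replicate 2, ranked 11907th.

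**Figure D2:**
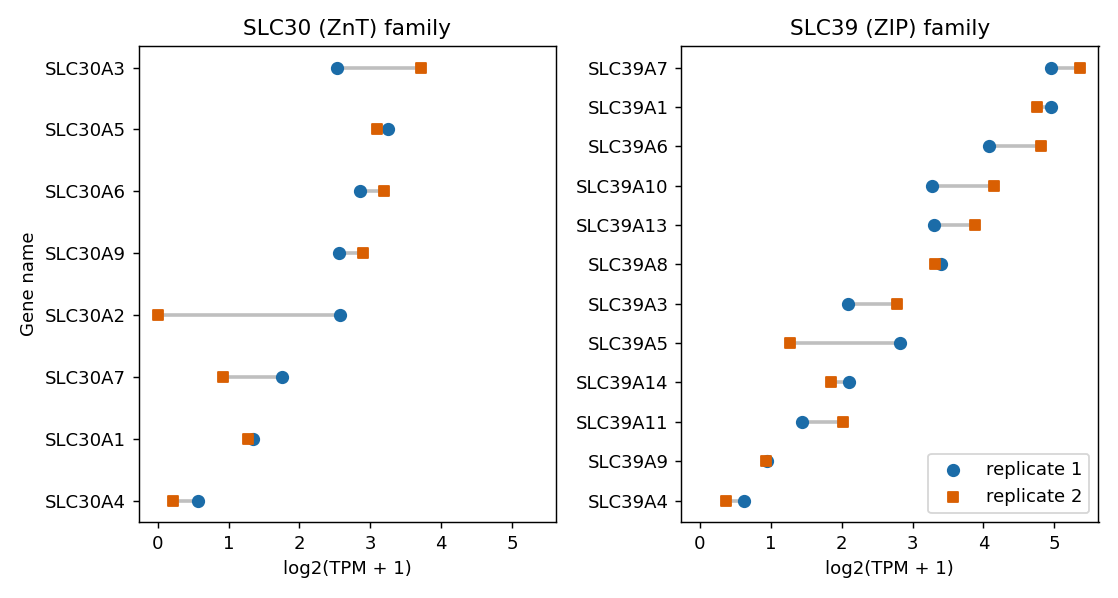
Levels on the log2(TPM + 1) scale of the 8 SLC30 names (left) and 12 SLC39 names (right) found, in replicate 1 (circles) and replicate 2 (squares). SLC39A7 and SLC39A1 lead the importers in replicate 1, and SLC30A2 is at 0 in replicate 2 after 4.94 TPM in replicate 1.

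How far the 2 animals differed was taken from counts, as the log2 ratio of replicate 2 over replicate 1 on CPM + 1 after TMM scaling, less the median over all 11290 names with a mean of at least 1 CPM. All 10 genes passed that filter. In replicate 2, 2 of the 10 genes, MT4 and SLC39A5, lay more than 2-fold down, and 0 lay more than 2-fold up. The background over all names tested was 5.16% more than 2-fold down (583 names) and 0.0266% more than 2-fold up (3 names). The median of the 10 genes was -0.25 against 0 for all names by construction. TPM in replicate 2 were higher for most genes, by a median of 0.33 on the log2(TPM + 1) scale, so TPM set side by side lie higher in replicate 2 than these ratios do.

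MT4 had a log2 ratio of -1.94, 3.83-fold lower in replicate 2, and 2.78% of all names had a lower ratio. Its counting interval without the added 1 CPM was -2.04 to -1.87. SLC39A5 had a log2 ratio of -1.81, or 3.52-fold, which the added 1 CPM pulls towards 0 at this depth: without it the ratio was -2.53, with an interval of -3.25 to -1.88. SLC39A14 followed, with -0.85, or 1.80-fold lower, and an interval of -1.15 to -0.66 that reaches past 2-fold. These 3 genes had the lowest ratios of the 10.

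The other 7 genes lay between -0.40 and 0.22. SLC30A1 had a ratio of -0.40, with an interval from -1.09 to 0.01, and SLC30A5 one of -0.33. The intervals of SLC30A5 (-0.61 to -0.10) and SLC39A1 (-0.32 to -0.03) did not include 0. SLC39A1 (-0.17), SLC39A7 (-0.06) and SLC30A9 (-0.03) were within 1.13-fold; taken from TPM the ratio of SLC39A1 was -0.54, while SLC39A7 (0.06) and SLC30A9 (0.01) changed sign. MT3 (0.18) and MTF1 (0.22) were the only ones above the median of all names, and their intervals, -0.18 to 0.60 and -0.17 to 0.70, included 0. The intervals of SLC39A7 (-0.19 to 0.06) and SLC30A9 (-0.19 to 0.13) did so too. For these 4 genes and SLC30A1 no difference between the 2 libraries beyond counting error was seen. That does not show equal levels, since each interval leaves room for a difference within it.

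**Figure D3:**
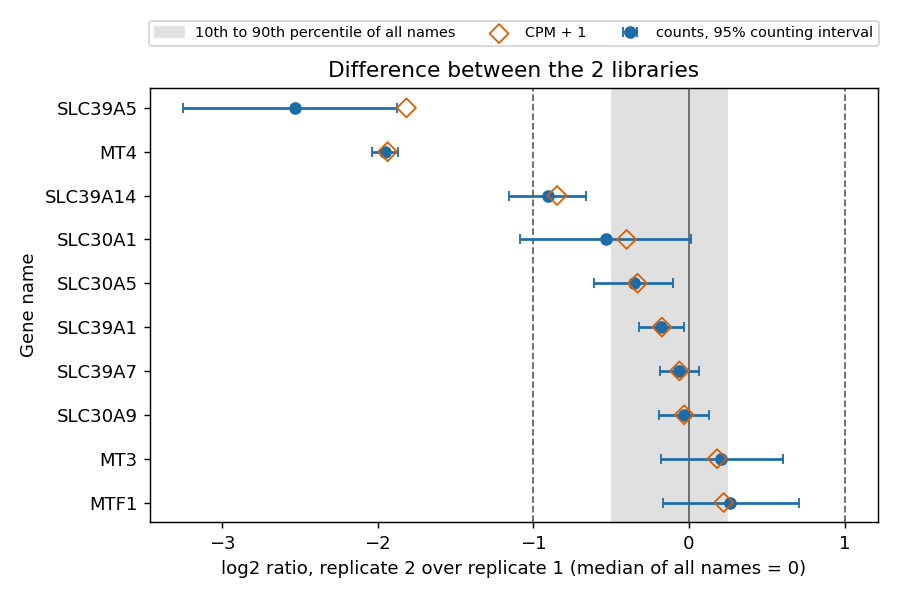
Log2 ratios of replicate 2 over replicate 1 for the 10 genes, from counts with exact 95% counting intervals (filled circles and bars) and on CPM + 1 (open diamonds), with the median of all names at 0, dashed lines at 2-fold, and grey from the 10th to the 90th percentile of all names. MT4 and SLC39A5 lie left of the 2-fold line, at -1.94 and -1.81 on CPM + 1, and the interval of SLC39A14 crosses it.

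Hepatocyte markers moved in the same direction and by more. All 10 were lower in replicate 2, between 14.4-fold and 48.5-fold, with a median log2 ratio of -4.66; ALB was at 7990 and 176 TPM. Without the added 1 CPM their ratios ran from -5.64 to -4.05, below the intervals of MT4, SLC39A5 and SLC39A14. The part of hepatocyte content in the lower MT4, SLC39A5 and SLC30A2 of replicate 2 was not tested. Of the 8 alveolar and airway markers 7 were tested, with a median of 0.21 and ratios of 0.10 to 0.29. The untested one, the club cell secretoglobin SCGB1A1, had 1 count in replicate 1 and 24 in replicate 2, a log2 ratio of 4.32 without the added 1 CPM with an interval of 1.71 to 9.68. The erythroid markers had a median of -0.12. Pancreas markers, relevant to SLC39A5 and SLC30A2, were at 0 counts for both names found, CPA1 and PNLIP, in each library. Intestine markers summed to 5.89 and 2.20 TPM and were lower in replicate 2, as SLC39A5 was. Most of that sum was CDH17, with 84 and 42 counts and a log2 ratio of -0.95; FABP2 had 14 counts and 1 count, VIL1 8 and 0, and MUC2 0 in both, and no assembled gene carried the name CDX2. The part of intestinal transcripts in the lower SLC39A5 was not tested.

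Over the whole pathway list, 19 of the 23 names found passed the filter. MT4, SLC39A5 and SLC30A2 were more than 2-fold down in replicate 2 and 0 names more than 2-fold up. Over all names tested these shares were 5.16% and 0.0266%. The median log2 ratio of the list was -0.06, also with SLC30A2 set at its bound. The highest ratios were those of SLC39A3 (0.36), SLC39A11 (0.34) and SLC39A10 (0.27). SLC39A8, at -0.10, and SLC30A6, at -0.01, lay close to the median of all names.

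**Figure D4:**
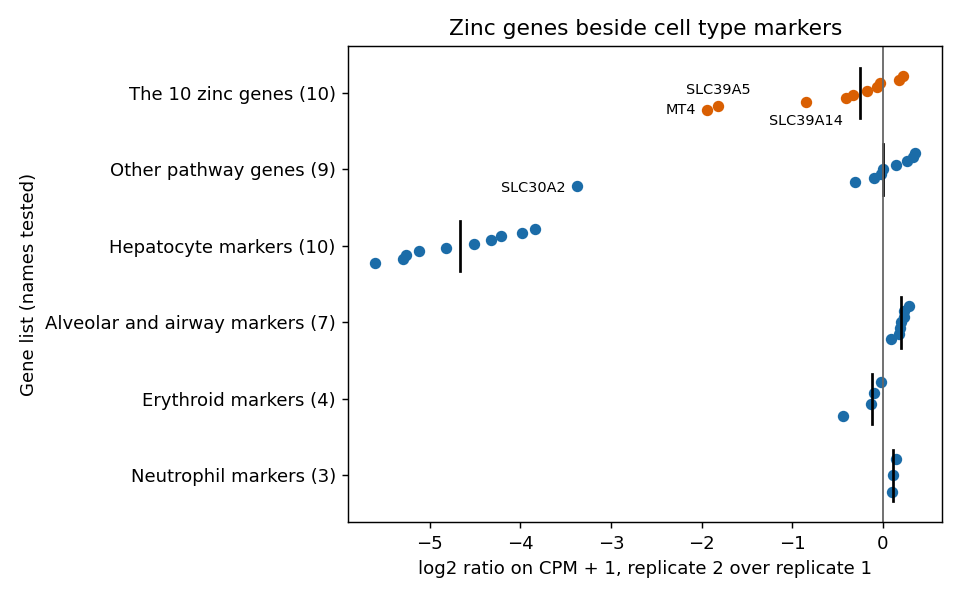
Log2 ratios on CPM + 1 of replicate 2 over replicate 1 for each tested name of the 10 zinc genes, the other pathway genes and 4 marker lists (rows, number tested in brackets), with a black bar at each list's median. MT4 and SLC39A5 lie between the other zinc genes and the hepatocyte markers, which run from -5.60 to -3.84. SLC30A2 had 0 counts in replicate 2, so its point is set by the added 1 CPM and is no bound.

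Of 10 further zinc-handling proteins listed, the highest was one that acts outside the cell in each library: ALB in replicate 1 and S100A8 in replicate 2. ALB, the main carrier of zinc in plasma, and HRG, a histidine-rich plasma protein that binds zinc, were both lower in replicate 2, HRG from 38.7 to 0.92 TPM on 599 and 16 counts. The log2 ratio of HRG was -4.33, in the range of the hepatocyte markers. A2M, a plasma protease inhibitor that also binds zinc, had 5610 and 5095 counts and a ratio of -0.40. S100A8 and S100A9, the subunits of calprotectin with which neutrophils withhold zinc from microbes, were at 555 and 816 TPM and at 354 and 517 TPM, with ratios of 0.15 and 0.10. Other neutrophil markers were low: LTF was at 7.85 and 11.6 TPM, ELANE had 0 counts and 1 count, and MPO had 0 in both. The part of neutrophils in the calprotectin levels was not tested. In replicate 1 MT4 was above S100A8, and in replicate 2 both calprotectin subunits were above MT4.

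Other proteins tied to cell zinc were at moderate levels. TRPM7, a channel that lets in zinc and magnesium, was at 14.7 and 24.8 TPM, and TMEM163, a zinc transporter of vesicles, at 3.40 and 4.89. TMC6 and TMC8, membrane proteins that bind SLC30A1, were at 9.94 and 14.5 TPM and at 9.33 and 7.41 TPM. Their log2 ratios, and that of TRPM7, lay between -0.07 and 0.21. GPR39, a receptor for extracellular zinc, had 10 and 4 counts.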

How the data were processed

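Poly(A)-selected libraries of 2 bats of the CW group, numbered by their titles, were analysed; that they are separate animals rests on the design text, and part of their spread may be technical. The authors deposited 1 table per library over Trinity assembled genes. The submitters' processing notes name cutadapt 1.9, and the mm10 build for replicate 1 only; assembler version and quantifier are not given in the sources used here. Per the file headers 1 column holds counts; as deposited these are expected counts with decimals, here summed by name and rounded. The second deposited column is taken to be TPM from its sums of 996837 and 996239. Names are best Swiss-Prot matches; 9 of the 10 genes (all but MT3) are symbols in RefSeq of ASM189008v1. Sequences were not analysed here.

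TMM factors from edgeR 4.0.16 (R 4.3.3), over all assembled genes, were 0.910 and 1.10. Ratios used log2(CPM + 1) and a filter at a mean of 1 CPM. The ratio was tested on simulated counts. Counting intervals are at 95%: Wilson for shares, exact binomial for ratios. Implied lengths were scaled so that the median single-variant gene of at least 1000 bases and 100 counts matched its listed length. Computations ran in Python 3.11.15 with scipy 1.17.1. The 10 genes and lists were chosen with earlier results of these data known. All 10, every pathway gene found and all other zinc proteins listed are named.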

Additional observations from a re-analysis of the deposited data

How the results depend on the processing

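No paired analysis was possible because both libraries form 1 group. The number of the 10 genes over 2-fold apart was 2 (MT4 and SLC39A5) with DESeq2 1.42.0 size factors, library size scaling, the median kept, no filter, a pseudocount of 0.1 CPM, ratios from TPM, and the highest assembled gene of each name only. With a filter at a mean of 10 CPM it was 1 (MT4), since 6 of the 10 genes were then tested. Over all names tested, the share more than 2-fold lower in replicate 2 ran from 4.54% with that filter to 7.1% with ratios from TPM. The share more than 2-fold higher ran from 0% to 0.576% in the same settings. The median log2 ratio of the pathway list ran from -0.11 with the filter at 10 CPM to 0.00 with ratios from TPM. Without each replicate in turn, the summed level ranged from 448 to 1260 TPM and the pathway genes at 1 TPM or more from 18 to 20; thresholds of 0.5 and 2 TPM gave 20 and 14. From counts and listed lengths, an alternative chosen after seeing the data, the mean sum was 377 TPM; it was 1164 rescaled without the 10 highest assembled genes, 847 from those of at least 300 bases and 846 from the highest of each name. Ratios without a replicate cannot be formed. Depth limits SLC39A5, with 23 counts in replicate 2, and MTF1, MT3 and SLC30A1; the spread between animals rests on 2.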
